A study of Sus scrofa with 30 samples.

Results

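The genes described here encode proteins of the mitochondrial ribosome, and their transcripts were measured in pig cerebral cortex. A probe set, the group of oligonucleotide probes that reads a transcript on the array, was a member if its single gene symbol began with MRPL or MRPS followed by a digit, which stand for the large and the small subunit. The rule found 77 probe sets, and the one with the highest mean log2(intensity + 16) over the 30 arrays was kept for each gene. This left 58 genes, 36 MRPL and 22 MRPS, of 6765 genes with a single symbol. All 58 passed the filter on low intensity, with mean intensities of 97.7 (MRPS23) to 1069 (MRPL3) arbitrary units, against a filter at 29.5.

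The mitochondrial ribosome makes the few proteins that are encoded in mitochondrial DNA, which are core subunits of the respiratory chain and of ATP synthase. Its RNA comes from the mitochondrial genome, whereas its proteins are encoded in the nucleus, made in the cytosol and imported. Many of these proteins have a counterpart in bacterial ribosomes, and others were added in the course of mitochondrial evolution. Neurons depend heavily on the respiratory chain, and inherited defects of several of these genes cause encephalopathy or cardiomyopathy in humans.

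The study examined cortex of farm pigs (Swedish triple breed, both sexes, aged 12 to 14 weeks) in 10 groups of 3 biological replicates, with 1 Affymetrix porcine array per sample. All pigs were under pentobarbital anaesthesia and mechanically ventilated, and ventricular fibrillation was induced in all of them, the controls included. The 3 methylene blue groups (MB30, MB60, MB180) had 12 min of arrest and 8 min of chest compressions, and received saline at 55 mL/kg/h with methylene blue, a phenothiazine dye, at 7.5 mg/kg/h. Their cortex was taken 30, 60 or 180 min after the return of spontaneous circulation (ROSC). The 3 saline groups (SAL30, SAL60, SAL180) had the same arrest, compressions, infusion rate and times without the dye. The infusion ran from 1 min after the start of compressions to 50 min after ROSC, so MB30 cortex was taken while it ran. In the untreated arrest groups, cortex was taken after 0, 5, 20 or 30 min of arrest without resuscitation (CA0, CA5, CA20, CA30), and CA0 was the control.

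The deposited values were intensities on a linear scale, scaled by the authors so that every array had nearly the same trimmed mean (299.93 to 299.94). Differences are on the log2(intensity + 16) scale, which understates changes of dim probe sets. They were tested with limma in a single fit of 16799 probe sets, and "changed", "rose" or "fell" is used at a Benjamini-Hochberg adjusted p under 0.05. The tissue label was checked against cell type markers. Neuronal markers were bright on every array, with SNAP25 at 7124 to 19970 and SYT1 at 3397 to 8393, and the oligodendrocyte gene MBP ran from 10880 to 25770. TTR, a gene of the choroid plexus, ran from 1.265 to 11960, with its highest value on an untreated arrest array. These are bulk samples, in which fewer cells of a type and less RNA per cell cannot be told apart.

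The methylene blue arrays stood apart from the rest. On the first principal component of the 16799 probe sets tested they lay at 13.5 to 47.1, against -39.6 to 10.3 for saline and -41 to 1.95 for untreated arrest. The log2 3'/5' ratio, averaged over 5 pairs of control probe sets for actin and GAPDH, is higher where RNA is degraded or copied incompletely. It was 0.556 to 1.42 on the 9 methylene blue arrays and 1.06 to 2.53 on the 9 saline arrays. The difference was -0.491 (exact permutation test within times, 8000 relabellings, two-sided p = 0.006). Another 5 arrays also stood apart (SAL30 replicate 1, CA20 replicates 2 and 3, SAL60 replicate 2 and SAL180 replicate 3). Each methylene blue result below is therefore also given with the ratio as a covariate or without those arrays where that ends a call or moves a count by over 1.5 times.

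**Figure D1:**
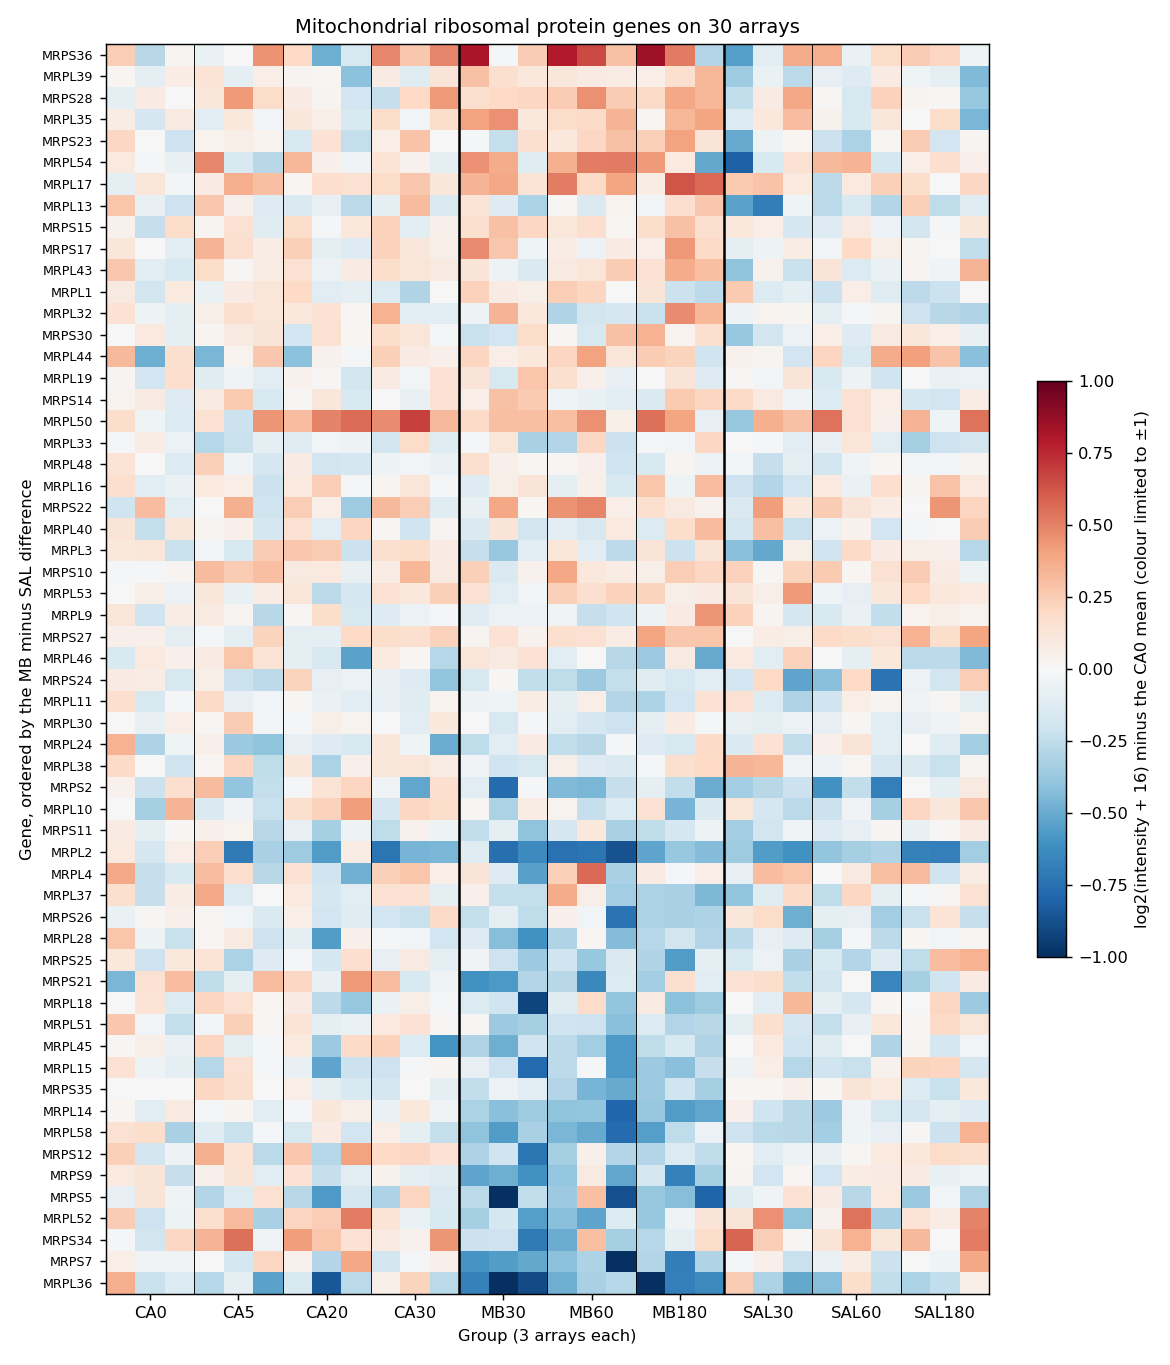
Each cell shows a gene (rows, ordered by the methylene blue minus saline difference) on 1 of 30 arrays (columns, by group). Colour gives the deviation of log2(intensity + 16) from that gene's mean in CA0, on a limited scale. The CA0 columns are therefore centred by construction. The bottom and top rows differ between the MB and SAL columns, and the CA columns show no block of one colour over all 58 genes.

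As a whole, the 58 genes had overlapping levels in the 3 arms. Their median log2(intensity + 16) per array was 8.50 to 8.755 on methylene blue arrays, 8.62 to 8.755 on saline arrays and 8.61 to 8.80 on untreated arrest arrays. The lowest value belonged to MB60 replicate 3. The range of a gene's 10 group means had a median of 0.427 log2 units over the members, against 0.591 over all probe sets tested. Within groups, pairs of members varied together only weakly. The median Pearson correlation of their deviations from the group means was 0.0725 over 1653 gene pairs, 0.0899 among genes with MRPL symbols and 0.0263 among those with MRPS symbols. It was 0.545 over 61 cytosolic ribosomal protein genes and 0.236 over 58 nuclear-encoded respiratory chain genes, measured on the same 30 arrays. The median over all genes with a single symbol was 0.00874. These correlations are across genes that share arrays, and none was tested.

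**Figure D2:**
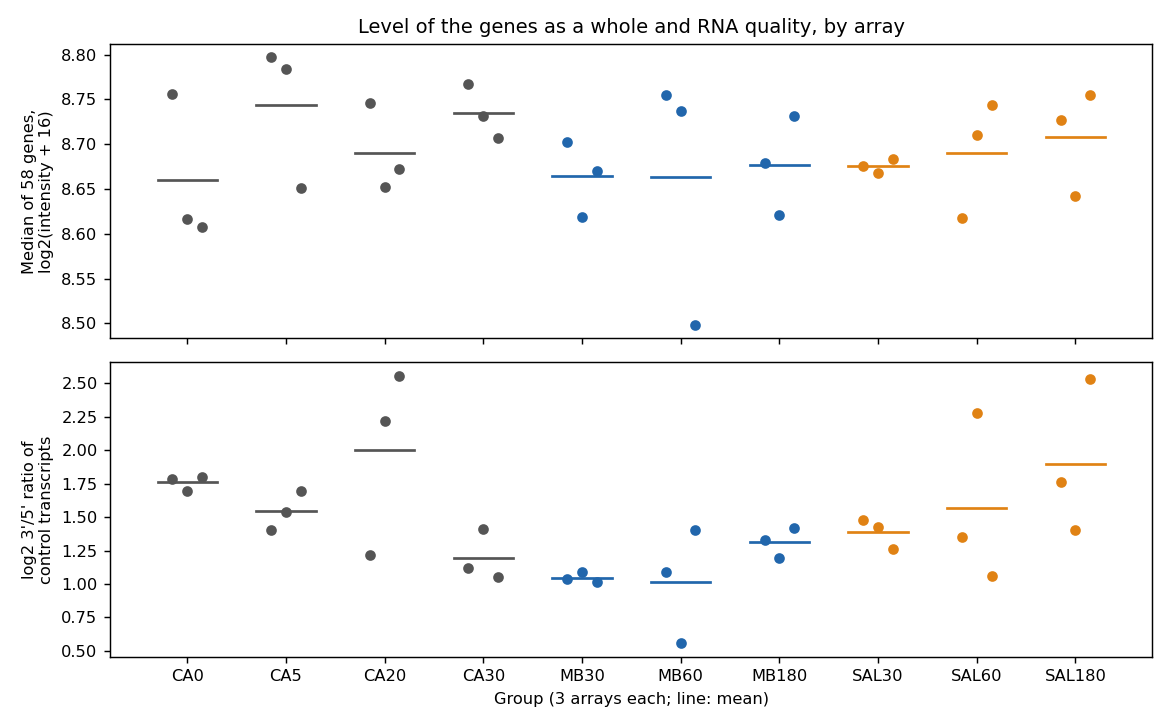
The upper panel shows the median log2(intensity + 16) of the 58 genes and the lower panel the log2 ratio of 3' to 5' control probe sets, with a point per array and a line at each group's mean. The medians of the 3 arms lie between 8.50 and 8.80 and overlap, while the ratio is lower on MB arrays than on SAL arrays (mean 1.13 against 1.62).

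In a test of any difference among the 10 groups, 4 of the 58 genes (6.9%) passed, against 15.3% of all probe sets tested. They were MRPL14 (limma F-test, adjusted p = 0.00266), MRPS35 (0.0138), MRPL36 (0.0264) and MRPS7 (0.0353). With the 3'/5' ratio as a covariate 1 gene passed. The share of all probe sets that passed in that fit is not given here, so the drop is not by itself a result about the members. Leaving out single arrays gave 3 to 5, except that 2 passed without MB30 replicate 2. All 4 were lowest in a methylene blue group. The smallest spread of group means was that of MRPL11, which lies in the GTPase-associated region of the large subunit. Its group means ran from 300.1 ± 54.0 (MB180) to 333 ± 36.0 (CA5) units (SD, n = 3 each), a range of 0.15 on the log2 scale. MRPL40, MRPL48, MRPL19 and MRPL30 followed, with ranges of 0.19 to 0.24.

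Untreated arrest alone gave no call among these genes. No gene changed in CA5, CA20 or CA30 against CA0 with limma, and the share of all probe sets that changed was 0% in CA5, 0.0119% in CA20 and 0.0119% in CA30. At an unadjusted p under 0.05 the counts were 1, 1 and 2 of 58, against 1.89%, 4.24% and 4.06% of all probe sets. The median log2 difference of the members was 0.03 (CA5), -0.01 (CA20) and 0.03 (CA30), against 0.01, 0.01 and 0.02 over all probe sets. These comparisons share the CA0 arrays.

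The largest values under arrest belonged to MRPL2 and MRPL50. MRPL2, a protein at the peptidyl transferase centre, read 421, 508 and 514 units in CA30, against 761, 629 and 746 units in CA0. Every CA30 array lay below every CA0 array, and the difference was -0.55 ± 0.19 (limma, adjusted p = 0.985). Its CA5 arrays, at 845, 428 and 562 units, spanned both ranges. MRPL50, an addition of the mitochondrial large subunit, averaged 125 ± 12.4 units in CA20 and 129 ± 18.2 units in CA30, against 87.3 ± 11.7 units in CA0 (SD, n = 3 each). The differences were 0.45 ± 0.21 and 0.49 ± 0.21 (adjusted p = 0.997 and 0.985). MRPS10, a small subunit head protein, had the smallest p in CA5 (difference 0.29 ± 0.12, adjusted p = 1).

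Resuscitation with saline changed none of the 58 genes at any of the 3 times against CA0 with limma, against 0.196% of all probe sets in SAL30, 0.315% in SAL60 and 0.875% in SAL180. The members' medians were -0.04, -0.03 and -0.00 (all probe sets 0.02, 0.01 and 0.00). At an unadjusted p under 0.05 the counts were 2, 1 and 3 of 58, against 7.38%, 6.30% and 8.73% of all probe sets. MRPL2 was again on the low side, with SAL30 at -0.50 ± 0.19, SAL60 at -0.35 ± 0.19 and SAL180 at -0.57 ± 0.19 (adjusted p = 0.605, 0.832 and 0.218). All of these rest on the same 3 bright CA0 arrays. MRPS2, a small subunit protein with a bacterial counterpart, averaged 269 ± 47.2 units in SAL60 and 389 ± 53.3 units in CA0 (difference -0.51 ± 0.20, adjusted p = 0.657). MRPL13, a large subunit protein, averaged 486 ± 123 units in SAL30 and 650 ± 118 units in CA0 (adjusted p = 0.632).

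MRPS27, an RNA-binding protein with pentatricopeptide repeats, had its highest group means late after ROSC in both arms. It read 463 ± 23.1 units in MB180 and 461 ± 37.5 units in SAL180, against 369.6 ± 22.9 units in CA0 (SD, n = 3 each). Against CA0 the differences were 0.31 ± 0.11 for MB180 (adjusted p = 0.0597) and 0.30 ± 0.11 for SAL180 (0.259). Between 180 and 30 min no member changed in either arm with limma. The share of all probe sets was 0.286% for MB180 against MB30 and 0.655% for SAL180 against SAL30, and at an unadjusted p under 0.05 the counts were 3 and 6 of 58, against 6.9% and 13.5% of all probe sets. The smallest p over time was that of MRPL46, a large subunit protein, in MB (-0.38 ± 0.15, adjusted p = 0.51), and that of MRPL16, a large subunit protein near the tRNA sites, in SAL (0.37 ± 0.13, adjusted p = 0.195).

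**Figure D3:**
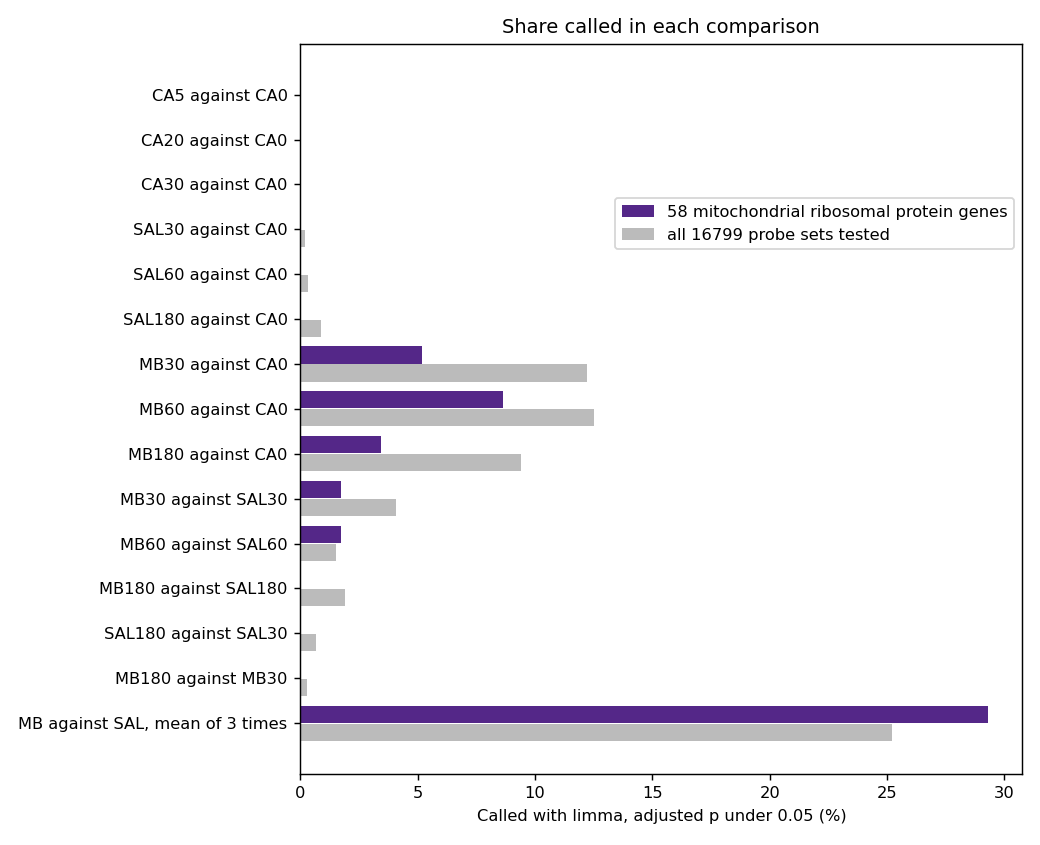
Bars give the percentage of the 58 genes and of all 16799 probe sets with a limma adjusted p under 0.05 in each comparison. The members stand at 0% in the untreated arrest and saline comparisons, below all probe sets in MB against CA0, and at 29.3% against 25.2% in the mean methylene blue minus saline difference.

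Against CA0, methylene blue groups showed 3 lower genes in MB30 (5.17%, against 12.2% of all probe sets changed), 5 in MB60 (8.62%, against 12.5%) and 2 in MB180 (3.45%, against 9.41%). No member rose. The MB30 count fell to 0 without MB30 replicate 2 and to 1 without MB30 replicate 3, and the MB60 count to 2 without MB60 replicate 3 and to 3 without CA0 replicate 1 or 2 or MB60 replicate 2. The MB180 count fell to 0 without CA0 replicate 3 or MB180 replicate 2. The lower direction alone held 4.59%, 5.49% and 3.71% of all probe sets. The median member difference was -0.08, -0.10 and -0.02, against 0.04, 0.01 and 0.04 over all probe sets. Centring each array on its median moved the median of all probe sets in these comparisons by more than 0.1, and the members' medians to -0.26, -0.24 and -0.19.

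MRPL14, a protein at the face where the subunits meet and the landing place of an assembly factor that keeps them apart, fell at all 3 times. It read 539, 502 and 524 units in MB30, 506, 510 and 383 units in MB60, and 515, 451 and 464 units in MB180, against 684, 623 and 718 units in CA0. All 9 methylene blue arrays lay below all CA0 arrays. The differences were -0.36 ± 0.12 (adjusted p = 0.0424), -0.53 ± 0.12 (0.00523) and -0.49 ± 0.12 (0.0102). The MB30 call was lost with the 3'/5' ratio as a covariate (adjusted p = 0.143). The same happened when CA0 replicate 1 or 3 or any of the 3 MB30 arrays was left out (0.0661 to 0.135), and without CA30 replicate 3 it stood at the threshold. The MB180 call was lost without CA0 replicate 3 (0.0507) or MB180 replicate 2 (0.0514).

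MRPL36, a small zinc-binding protein added late in large subunit assembly, had the widest spread of group means among the 58 genes, 1.11 on the log2 scale. It read 156, 66.9 and 131 units in MB30, 311, 205 and 177 units in SAL30, and 337, 219 and 234 units in CA0. The MB30 arrays lay below all arrays of both other groups. The difference was -1.10 ± 0.25 against CA0 (adjusted p = 0.00595) and -0.91 ± 0.25 against SAL30 (adjusted p = 0.0367). Without MB30 replicate 2, its dimmest array, these became 0.0519 and 0.192. The SAL30 comparison was also lost without SAL30 replicate 1 or 2 or MB30 replicate 3 (0.186, 0.0589 and 0.0566), and with the ratio as a covariate (0.0575). In MB180 it read 122, 155 and 161 units, and the difference from CA0 was -0.77 ± 0.25 (adjusted p = 0.0485). That call, which became 0.102 with the covariate, was kept when CA20 replicate 1 or 2, SAL30 replicate 1 or 3, SAL60 replicate 2, SAL180 replicate 3 or MB30 replicate 1 or 2 was left out, and was lost without each of the other 22 arrays (0.0502 to 0.193).

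MRPL2 fell in MB60, with 417, 422 and 381 units, against 761, 629 and 746 units in CA0. The groups did not overlap, and the difference was -0.78 ± 0.19 (adjusted p = 0.00885). With the 3'/5' ratio as a covariate its adjusted p was 0.0721. The SAL60 arrays, at 535, 559 and 570 units, also lay below CA0. A second MRPL2 probe set ran against the first over the 30 arrays (Pearson r = -0.408), and the mean of both gave an adjusted p of 0.344.

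The other calls against CA0 were MRPS9 in MB30 and MRPS35, MRPL58 and MRPS7 in MB60. MRPS9, whose tail reaches the peptidyl tRNA, read 169, 175 and 160 units in MB30, against 270, 277 and 212 units in CA0 (difference -0.54 ± 0.16, adjusted p = 0.0274). It was lost without CA0 replicate 1 or 2 or any MB30 array (0.0557 to 0.0998), and with the mean of both its probe sets, where the difference was -0.165 (0.655). MRPS35, an addition of the mitochondrial small subunit, read 298, 263 and 256 units in MB60, against 367, 370 and 370 units in CA0 (-0.42 ± 0.11, adjusted p = 0.0131). It was lost without MB60 replicate 2 (0.0562) or 3 (0.0504). In both genes the MB arrays lay below all CA0 arrays.

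MRPL58, a peptidyl-tRNA hydrolase that also frees stalled ribosomes, read 171, 166 and 135 units in MB60, against 271, 275 and 189 units in CA0 (-0.58 ± 0.16, adjusted p = 0.0215). It was lost without CA0 replicate 1 or 2 or MB60 replicate 2 or 3 (0.0509 to 0.0947). MRPS7, a head protein of the small subunit whose bacterial counterpart binds RNA early in assembly, read 101, 110 and 51.3 units in MB60, against 148, 137 and 136 units in CA0 (adjusted p = 0.0351). It was lost without any CA0 array or MB60 replicate 3 (0.0714 to 0.23). The groups did not overlap in either gene. With the ratio as a covariate the MB60 calls of MRPS35, MRPL58 and MRPS7 were all lost (0.0703, 0.146 and 0.172), and so MB60 kept 1 called gene of 5, MRPL14. The share of all probe sets called in that fit is not given here.

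The study's treatment comparison is methylene blue against saline at the same time after ROSC. At single times 1 gene fell at 30 min (MRPL36, given above; 1.72%, against 4.09% of all probe sets changed and 1.69% lower), 1 fell at 60 min (1.72%, against 1.52% changed and 0.798% lower) and none changed at 180 min (against 1.9%). At 180 min the smallest adjusted p with limma was 0.097 (MRPL14, -0.36 ± 0.12), and 17 of 58 genes had an unadjusted p under 0.05, against 18.6% of all probe sets. The gene at 60 min was MRPS35, with 298, 263 and 256 units in MB60, against 372, 404 and 396 units in SAL60. The groups did not overlap, and the difference was -0.50 ± 0.11 (adjusted p = 0.0217). It was lost with the 3'/5' ratio as a covariate (0.061), and without SAL60 replicate 2 or 3 or MB60 replicate 2 or 3 (0.0527 to 0.118).

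Averaged over the 3 times, with 9 arrays against 9, 17 of the 58 genes changed (29.3%), against 25.2% of all probe sets. Of these, 12 fell and 5 rose, 20.7% and 8.62% of the members, whereas 11.4% of all probe sets fell and 13.8% rose. The share of members was thus near the background, and the median difference was -0.01, against 0.02 over all probe sets. All 17 had the same sign at each of the 3 times, as did 31 of the 58 genes (53.4%) and 57.7% of all probe sets. The 17 were called on the mean of these same 3 differences, which favours a shared sign, so this is no separate evidence. No member, and no probe set, showed a methylene blue effect that differed between times (limma F-test of the interaction). At an unadjusted p under 0.05, 3 members did, against 2.88% of all probe sets.

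With the 3'/5' ratio as a covariate 11 genes were called (19%, against 11.1% of all probe sets), 10 lower and 1 higher. Of these 11, 10 were among the 17. Without the 5 arrays that stood apart 7 of the 17 were called (2 higher, 5 lower, background 14.8%). The 10 lost were MRPS12 (adjusted p = 0.0534), MRPL36 (0.0595), MRPL51 (0.0659), MRPL17 (0.068), MRPS5 (0.0702), MRPS34 (0.0973), MRPL58 (0.131), MRPL52 (0.18), MRPL35 (0.256) and MRPS28 (0.322). The single-time calls against saline of MRPL36 at 30 min (0.145) and of MRPS35 at 60 min (0.0801) were lost there too. A fit on the arrays whose ratios lay in the range of both arms left 1 array each in SAL30, SAL180 and MB30. Fewer calls there cannot be told apart from fewer arrays. Centring each array on its median gave 17 calls (29.3%, against 28.9% of all probe sets), but 1 higher and 16 lower. The directions over all probe sets were not counted in that fit. Whether the methylene blue arrays were handled apart from the others is not given in the labels, so treatment and array handling cannot be told apart in any comparison of methylene blue with another arm.

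**Figure D4:**
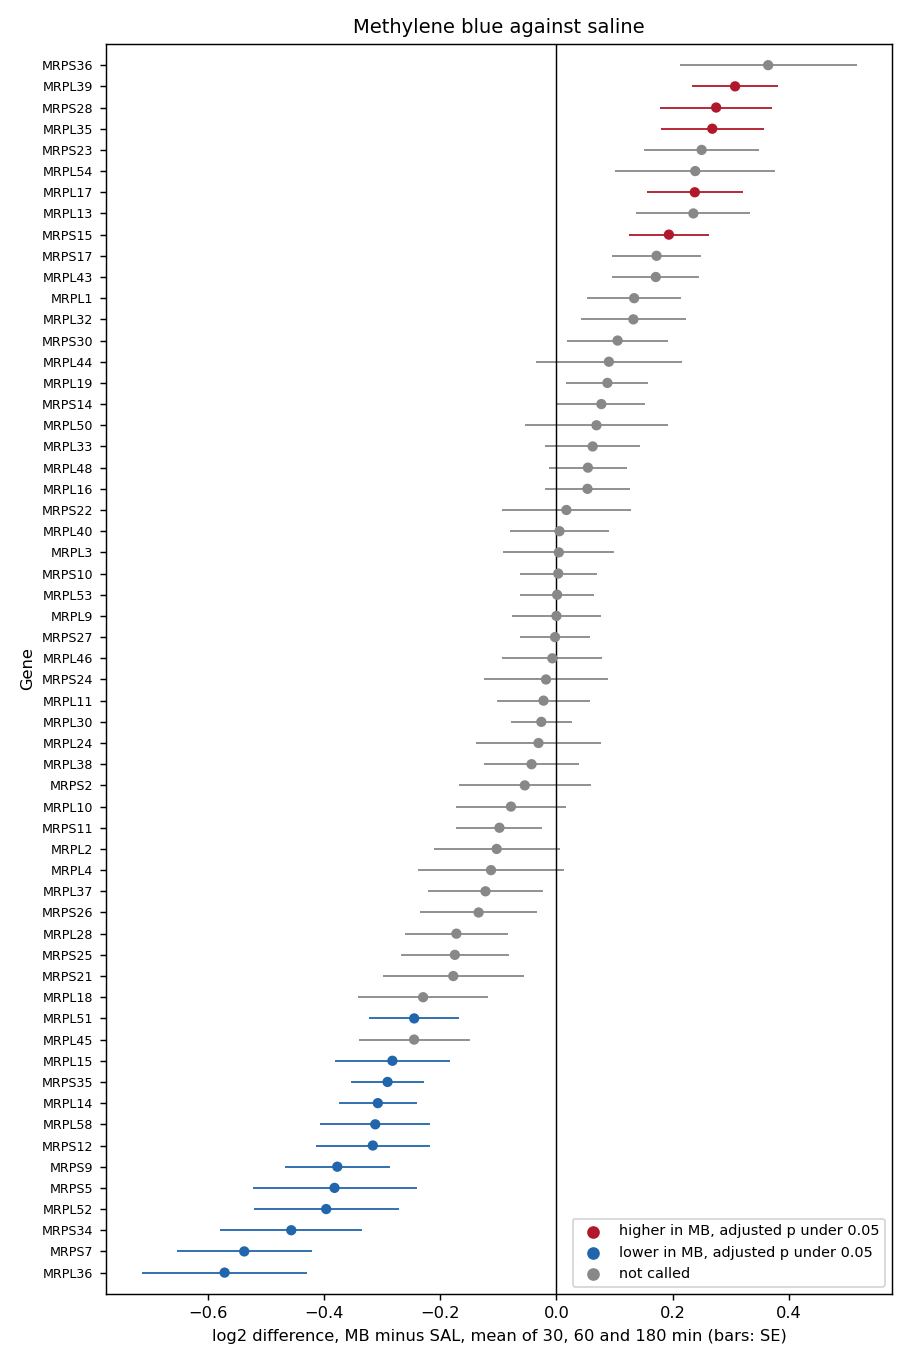
Points give the log2 difference, MB minus SAL averaged over 30, 60 and 180 min, of each of the 58 genes, and bars the standard error from limma. Coloured points passed an adjusted p of 0.05. The 12 lower genes run from -0.57 (MRPL36) to -0.24 (MRPL51) and the 5 higher ones from 0.19 (MRPS15) to 0.31 (MRPL39).

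Among the genes with MRPL symbols, 9 of 36 (25%) changed, 6 lower and 3 higher, against 25.2% of all probe sets changed, 11.4% lower and 13.8% higher. By origin, 11 of 34 genes with a bacterial counterpart (32.4%) and 6 of 23 mitochondrial additions (26.1%) changed, against the same 25.2%. MRPL14 read from 383 to 539 units (median 506) in MB and from 521 to 698 units (median 599.9) in SAL. The arms overlapped only between 521 and 539 units. The difference was -0.31 ± 0.07 (adjusted p = 0.00182). MRPL36 read from 66.9 to 209 units (median 156) in MB and from 177 to 311 units (median 215) in SAL. The upper MB arrays lay among the lower SAL arrays, and the difference was -0.57 ± 0.14 (adjusted p = 0.00509, and 0.0523 with the ratio as a covariate).

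MRPL58 read from 135 to 232 units (median 171) in MB and from 187 to 311 units (median 207) in SAL, with a difference of -0.31 ± 0.09 (adjusted p = 0.0177, and 0.134 with the covariate). MRPL51 and MRPL52 are additions without a bacterial counterpart. MRPL51 averaged 645 ± 61.5 units in MB and 768 ± 82.8 units in SAL (SD, n = 9 each), a difference of -0.24 ± 0.08 (adjusted p = 0.0222). MRPL52 averaged 526 ± 88.2 units in MB and 706 ± 163 units in SAL, a difference of -0.40 ± 0.12 (adjusted p = 0.0219, and 0.321 with the covariate). MRPL15, a core protein with a bacterial counterpart, averaged 646 ± 106 units in MB and 786 ± 106 units in SAL, a difference of -0.28 ± 0.10 (adjusted p = 0.0388). In these genes the arms overlapped on several arrays.

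The higher large subunit genes were MRPL39, MRPL35 and MRPL17. MRPL39, which resembles part of a threonyl-tRNA synthetase, read from 602 to 724 units (median 621) in MB and from 419 to 608 units (median 536) in SAL. Only the brightest saline array reached into the methylene blue range. The difference was 0.31 ± 0.07 (adjusted p = 0.00397, and 0.0889 with the covariate). MRPL35, with a bacterial counterpart, read from 417 to 572 units (median 522) in MB and from 295 to 514 units (median 425) in SAL (0.27 ± 0.09, adjusted p = 0.028, and 0.313 with the covariate). MRPL17, near the exit of the peptide tunnel, read from 396 to 591 units (median 498) in MB and from 312 to 461 units (median 428) in SAL (0.24 ± 0.08, adjusted p = 0.0355).

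Several other large subunit genes named for their role did not pass in this comparison. MRPL2 stood at -0.10 ± 0.11, MRPL3 at 0.00 ± 0.10, MRPL4 at -0.11 ± 0.13, MRPL10 at -0.08 ± 0.09 and MRPL11 at -0.02 ± 0.08 (adjusted p = 0.516 to 0.979). MRPL33 and MRPL44 stood at 0.06 ± 0.08 and 0.09 ± 0.13. MRPL12 and MRPL41 were not analysed here.

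Among the genes with MRPS symbols, 8 of 22 (36.4%) changed, 6 lower and 2 higher, against the same 25.2%, 11.4% and 13.8% of all probe sets. The 22 include MRPS30 and MRPS36, described below, whose proteins are not in the small subunit and which did not pass. MRPS7 was the single member whose 9 methylene blue and 9 saline arrays did not overlap, as was the case for 1.95% of all probe sets. It read 87.8, 90.1 and 93.6 units in MB30, 101, 110 and 51.3 units in MB60 and 111, 80.9 and 110 units in MB180. The saline arrays read 138, 145 and 118 units in SAL30, 133, 149 and 119 units in SAL60 and 140.0, 136 and 188 units in SAL180. Every saline array was thus brighter than the brightest methylene blue array, at 111 units. The difference was -0.54 ± 0.12 (adjusted p = 0.0017), with -0.49, -0.58 and -0.55 at 30, 60 and 180 min.

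MRPS35 read from 256 to 355 units (median 298) in MB and from 315 to 404 units (median 374) in SAL (-0.29 ± 0.06, adjusted p = 0.00171). MRPS9 read from 152 to 268 units (median 175) in MB and from 218 to 267 units (median 255) in SAL (-0.38 ± 0.09, adjusted p = 0.00391). MRPS34, an addition of the mitochondrial small subunit, read from 88.5 to 195 units (median 131) in MB and from 154 to 239 units (median 187) in SAL (-0.46 ± 0.12, adjusted p = 0.00825). In each of these genes most methylene blue arrays lay below all saline arrays, with an overlap at the upper end.

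MRPS12 lies at the decoding centre, and its bacterial counterpart is where streptomycin resistance arises. Its chosen probe set read from 234 to 414 units (median 323) in MB and from 370 to 456 units (median 404) in SAL (-0.32 ± 0.10, adjusted p = 0.0201). A second probe set stood at 0.32 ± 0.12 (adjusted p = 0.0502) and another at 0.01 ± 0.12, so the direction of MRPS12 depends on the probe set. MRPS5, which lines the entry of the messenger RNA, averaged 149.6 ± 50.5 units in MB and 193 ± 26.9 units in SAL (-0.38 ± 0.14, adjusted p = 0.0481).

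The higher small subunit genes were MRPS28 and MRPS15. MRPS28 averaged 263 ± 19.9 units in MB and 216 ± 37.9 units in SAL (0.27 ± 0.10, adjusted p = 0.0384, and 0.39 with the covariate). MRPS15, an early RNA-binding protein of subunit assembly, averaged 926 ± 55.3 units in MB and 809 ± 68.0 units in SAL (0.19 ± 0.07, adjusted p = 0.0399, and 0.108 with the covariate). MRPS22, in which human mutations cause mitochondrial disease, stood at 0.02 ± 0.11 (adjusted p = 0.926). MRPS30, which despite its symbol sits in the large subunit, stood at 0.10 ± 0.09 (0.394). MRPS36, now assigned to the 2-oxoglutarate dehydrogenase complex, had the highest difference of all members, 0.36 ± 0.15, and did not pass (0.0793). MRPS16 and the MRPS18 genes were not analysed here.

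The remaining 41 genes did not pass, and their differences ran from -0.24 ± 0.10 (MRPL45, a protein that anchors the ribosome to the inner membrane; adjusted p = 0.0602) to the value of MRPS36. MRPL45 read from 343 to 465 units (median 418) in MB and from 418 to 557 units (median 509) in SAL. MRPS23, an addition of the small subunit, read from 78.4 to 131 units (median 108) in MB and from 62.3 to 117 units (median 91.4) in SAL (0.25 ± 0.10, adjusted p = 0.0636). In both genes the arms overlapped. MRPL13 (0.24 ± 0.10), MRPS17 (0.17 ± 0.08) and MRPL43 (0.17 ± 0.08) stood on the high side, and MRPL18 (-0.23 ± 0.11), which in human cells carries 5S ribosomal RNA, and MRPL28 (-0.17 ± 0.09) on the low side, with adjusted p of 0.0773 to 0.154. The differences of MRPL3, MRPL9, MRPL40, MRPL46, MRPL53, MRPS10 and MRPS27 were within 0.01 of 0, with standard errors of 0.06 to 0.10.

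**Figure D5:**
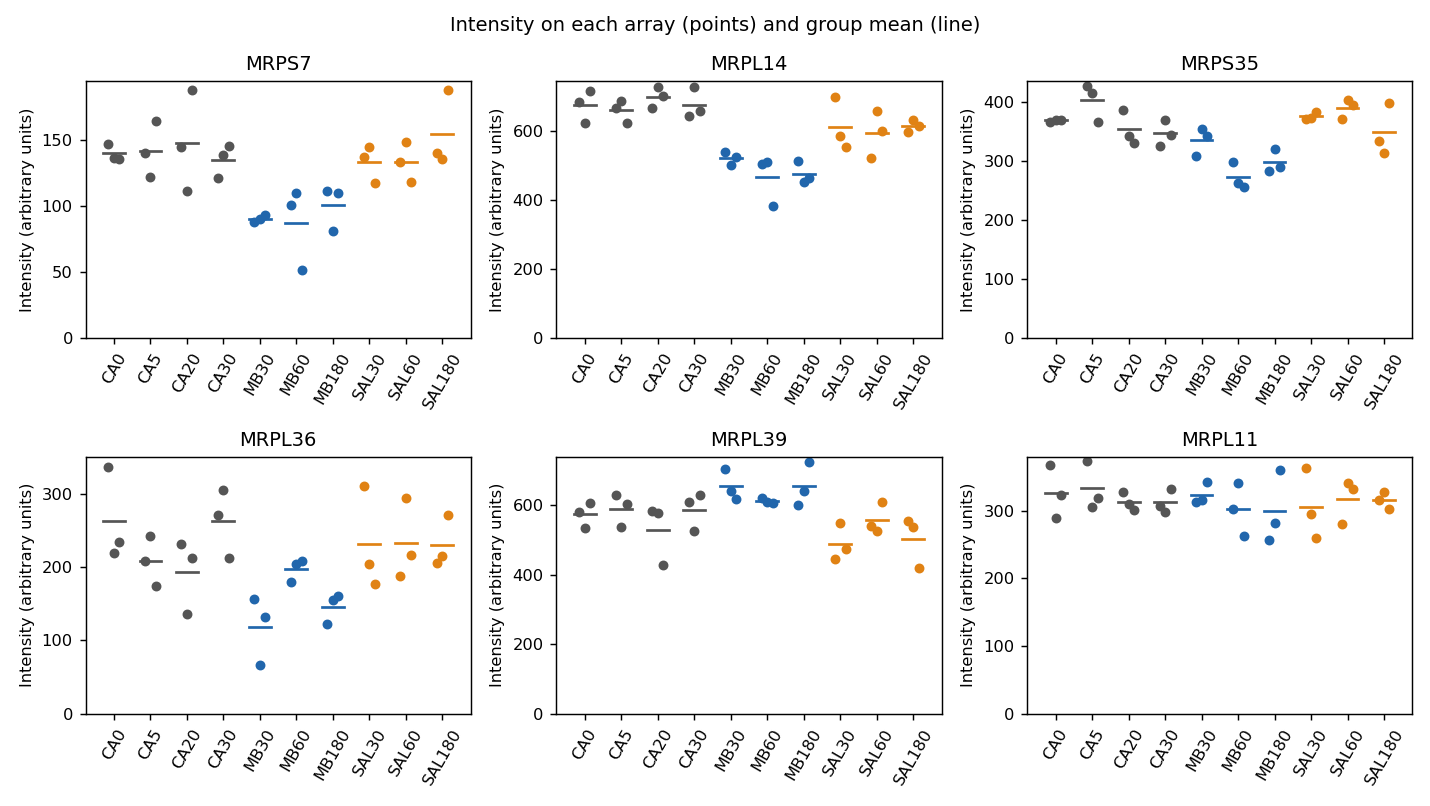
Points give the intensity (arbitrary units) of 6 genes on each array and lines the group means, over the 10 groups. MRPS7 reads lower on every MB array than on every SAL array, MRPL14, MRPS35 and MRPL36 are lowest in MB groups, MRPL39 is higher in MB groups, and MRPL11 stays level.

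Of the 17 calls, 8 held when each of the 30 arrays was left out in turn, namely MRPL14, MRPL36, MRPL39, MRPL58, MRPS7, MRPS9, MRPS34 and MRPS35. Without MB180 replicate 2 the count fell to 11 (19%, against 21.5% of all probe sets). MRPL15, MRPL17, MRPL35, MRPS5, MRPS15 and MRPS28 were lost there (adjusted p 0.0534 to 0.084). MRPL51 was lost without SAL30 replicate 2 (0.0521), MRPS12 without MB30 replicate 3 (0.0503), and MRPL52 without SAL30 replicate 2, SAL60 replicate 2 or SAL180 replicate 3 (0.0532 to 0.0617). MRPL35 was also lost without SAL30 replicate 1, SAL60 replicate 2, SAL180 replicate 3, MB30 replicate 1 or 2, MB60 replicate 3 or MB180 replicate 3 (0.0509 to 0.0749). MRPL17 was also lost without SAL30 replicate 3, SAL60 replicate 1, SAL180 replicate 2, MB30 replicate 1 or 2, MB60 replicate 1 or 3 or MB180 replicate 3 (0.0545 to 0.0858). MRPL15 was also lost without SAL30 replicate 1 or 2, SAL60 replicate 3, SAL180 replicate 1 or 2, MB30 replicate 3, MB60 replicate 1 or 3 or MB180 replicate 1 (0.0505 to 0.0971).

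MRPS15 was also lost without SAL30 replicate 3, SAL60 replicate 1 or 3, SAL180 replicate 1 or 2, MB30 replicate 2 or 3, or MB60 replicate 1 or 2 (0.0501 to 0.0869). MRPS28 was also lost without SAL30 replicate 1 or 2, SAL60 replicate 1 or 2, SAL180 replicate 3, any MB30 array, MB60 replicate 2 or MB180 replicate 3 (0.0509 to 0.0923). MRPS5 kept its call only when CA5 replicate 3, CA20 replicate 2, CA30 replicate 2, SAL60 replicate 2, MB30 replicate 1 or 3, MB60 replicate 2 or MB180 replicate 1 was left out, and lost it without each of the other 22 arrays (0.0503 to 0.121).

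Several probe sets were present for 14 of the 58 genes, and 15 of the probe sets not chosen were bright enough to be tested. Their correlation with the chosen probe set over the 30 arrays had a median Pearson r of 0.0758 and ran from -0.408 (MRPL2) to 0.544 (MRPL35), against a median of 0.159 over 2075 such pairs of all genes. In the methylene blue minus saline difference 8 of the 15 had the sign of the chosen one. MRPL35 rose in both of its tested probe sets (second one 0.46 ± 0.12, adjusted p = 0.00777). The second probe sets of MRPS9 and MRPL52 stood at -0.06 ± 0.17 and 0.01 ± 0.17, and with the mean of all probe sets of a gene these genes did not pass (adjusted p = 0.198 and 0.267). MRPL3, which binds near the peptidyl transferase centre, stood at 0.00 ± 0.10, against 0.36 ± 0.16 and 0.27 ± 0.13 in its other probe sets (adjusted p = 0.0972 and 0.147).

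Other genes of mitochondrial translation were read from lists chosen by function. Of 5 mitoribosomal proteins with other symbols, 1 changed between methylene blue and saline, GADD45GIP1, a large subunit protein (-0.38 ± 0.09, adjusted p = 0.00334). Of 8 translation factors 3 rose, the release factor genes MTRF1 (0.47 ± 0.16) and MTRF1L (0.29 ± 0.10) and the elongation factor TSFM (0.17 ± 0.06), with adjusted p of 0.0299 to 0.0478. Of 10 genes for charging mitochondrial tRNA 2 fell, VARS2, the valyl-tRNA synthetase (-0.78 ± 0.20, 0.00507), and GATC, a subunit of the glutaminyl-tRNA amidotransferase (-0.38 ± 0.08, 0.000826).

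Of 10 assembly factor genes 2 rose and 2 fell. GTPBP10, a GTPase of large subunit assembly, and METTL17, a factor of small subunit assembly, rose (0.36 ± 0.08 and 0.42 ± 0.09, adjusted p = 0.00143 and 0.00207). ERAL1, a chaperone of the small subunit RNA, and MRM2, a methyltransferase of the large subunit RNA, fell (-0.27 ± 0.09 and -0.27 ± 0.10, 0.0348 and 0.0472). Of 16 genes for transcription of mitochondrial DNA and handling of its RNA 5 rose and 2 fell. SUPV3L1, a helicase of RNA decay, rose most (0.65 ± 0.13, adjusted p = 0.000722), followed by FASTKD2, MTPAP, FASTKD3 and SLIRP (0.33 to 0.13). HSD17B10, a subunit of mitochondrial RNase P, and TFAM, which packs and transcribes mitochondrial DNA, fell (-0.24 ± 0.08 and -0.22 ± 0.07).

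The share called in these lists was 20% to 43.8%, around the 25.2% of all probe sets. The calls of GADD45GIP1, GATC, VARS2, GTPBP10, METTL17, SUPV3L1 and MTPAP held when each array was left out in turn. The other 10 did not, of which 9 were lost without MB180 replicate 2 (adjusted p 0.0624 to 0.101) and FASTKD2 without MB60 replicate 3 (0.0531). Those 9 were also lost without other arrays. SLIRP was kept in only 4 of the 30 fits, MRM2 in 8, TSFM in 9 and MTRF1L in 13, and HSD17B10 in 25. With the 3'/5' ratio as a covariate 11 of these 17 calls were lost (0.0544 to 0.316), and those of GADD45GIP1, GATC, GTPBP10, METTL17, SUPV3L1 and FASTKD2 were kept. Without the 5 arrays that stood apart 9 were lost (0.104 to 0.306), with VARS2 and FASTKD3 kept beside those 6. For comparison, 17 of 61 cytosolic ribosomal protein genes changed, 16 lower and 1 higher, and 12 of 58 respiratory chain genes, 9 lower and 3 higher. Of all probe sets 25.2% changed, 11.4% lower and 13.8% higher. The calls in these last lists were not followed with the covariate or without the 5 arrays.

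Markers of cell types were read beside the methylene blue comparison, in which 25.2% of all probe sets changed. The summed intensity of 5 neuronal markers was 26650 to 45970 on methylene blue arrays and 24080 to 34700 on saline arrays, and 1 of 5 rose (SYT1, 0.31, adjusted p = 0.0147). The sum of 4 astrocyte markers was 10460 to 15960 in MB and 10380 to 15020 in SAL, with 1 of 4 changed (SLC1A3, higher, 0.0162). SLC1A2 stood at 0.13, GFAP at -0.23 and ALDH1L1 at -0.06, and none of these passed. The sum of 3 microglia markers was 699 to 1086 in MB and 746 to 2253 in SAL, with 1 of 3 changed (TYROBP, lower, 0.0112). The sum of 3 oligodendrocyte markers was 17980 to 36080 in MB and 20690 to 28780 in SAL, and that of 2 red cell markers 806 to 1493 in MB and 672 to 1295 in SAL, with adjusted p of 0.155 to 0.963 for the single genes. MBP, the brightest of the oligodendrocyte markers, stood at 0.09, and MAG and MOBP at -0.44 and -0.22. Of 5 endothelial markers 1 rose (CDH5, 0.31, adjusted p = 0.0309). FLT1 and PECAM1 stood at 0.44 and 0.07, and CLDN5 and VWF at -0.21 and -0.34, and none of these passed. The sum of the 5 markers was 827 to 1598 units in MB and 842 to 1773 units in SAL. Of 4 meningeal and choroid plexus markers 1 rose (DCN, adjusted p = 0.0495). The sum of the 4 markers was 582 to 841 units in MB, 397 to 738 units in SAL and 403.5 to 12650 units on untreated arrest arrays. The choroid plexus gene TTR averaged 15.4 units in MB and 13.0 units in SAL, below the filter and so not tested. Its highest value, 11960 units, was on an untreated arrest array. The part of these markers in the differences of the 58 genes was not tested.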

How the data were processed

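RNA was extracted from cortex and its quality checked on a Bioanalyzer, and cRNA labelled by a one-cycle protocol was hybridised, per the labels' protocols. The deposited values are intensity per probe set on a linear scale, made by the authors with GCOS, per the submitters' processing notes; its version and signal algorithm were not given in the sources used here. Of 24123 probe sets, 124 controls were left out. Gene symbols came from the platform's probe table, and 57 of 58 members matched RefSeq's gene table by gene ID with the same symbol (not MRPS25).

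After a log2 transform with a pseudocount of 16, the dimmest 30 percent of probe sets by mean were left out. Limma 3.58.1 in R 4.3.3 fitted a mean for each of 10 groups (20 residual degrees of freedom) with an intensity trend, and p-values were two-sided and Benjamini-Hochberg adjusted over all 16799 probe sets of a comparison. Errors are standard errors of log2 differences and standard deviations of intensities. The arrays hold no counts, so their number limits the precision. The labels call the samples biological replicates.

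The members, lists, alternatives and roles were chosen with earlier results of these data known. Genes named were all that passed, those with the smallest p in a comparison, the brightest and dimmest, those with the widest and narrowest range of group means, a set by role, those with several probe sets, and the passing genes of the related lists. Those not printed one by one are covered by counts and ranges. Alternatives were other pseudocounts, filters, normalizations, weights, fits and probe set choices, the replicate number as a block, and each array left out. Chosen after seeing the data were a fit without 5 arrays and one on arrays of shared 3'/5' ratio. The pipeline was tested on simulated data. No sequences or genome positions were used here.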

Additional observations from a re-analysis of the deposited data

How the results depend on the processing

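Over 14 other settings and 30 fits without 1 array, no member was called in CA5, CA20 or CA30 against CA0, in SAL30 or SAL60 against CA0, in either comparison of 180 with 30 min, or in the interaction with time. Weights per array gave 1 call in SAL180 against CA0. Without single arrays the number called ran from 0 to 4 in MB30, 2 to 5 in MB60 and 0 to 2 in MB180 against CA0, from 0 to 2, 0 to 1 and 0 to 1 in MB against SAL at 30, 60 and 180 min, from 11 to 18 in the mean over times, and from 2 to 5 in the test of any group difference.

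Median centring gave 14 calls in MB30 and 6 in MB180 against CA0, 3 in MB30 against SAL30, 2 in MB180 against SAL180, and 10 for any group difference. It moved the members' median difference to -0.261, -0.239 and -0.189 in MB30, MB60 and MB180 against CA0, to -0.145 and -0.112 in SAL30 and SAL60 against CA0, to -0.0953 and -0.143 in MB against SAL at 30 and 180 min, to 0.117 in SAL180 against SAL30, and to -0.108 in the mean over times. Quantile normalization gave 4 calls in MB30 against SAL30. The share of all probe sets called moved with the setting too. In the mean over times it was 25.2% in the main fit, 28.9% with median centring and 11.1% with the 3'/5' ratio as a covariate. Without single arrays it ran from 19.8% to 27.1%. For the other comparisons of this section that share is not given, so a moved count is not by itself a result about the members.

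In MB180 against CA0 there was 1 call with a pseudocount of 1, no filter, the 50th percentile or no trend, 4 with array weights and 0 in a fit of the compared groups alone. That fit gave 1 in MB30 and 1 in MB60 against CA0, and 0 in MB against SAL at 30 and at 60 min. Array weights gave 0 in MB30 against SAL30 and 4 in MB180 against SAL180. With the 3'/5' ratio as a covariate there was 1 in MB60 against CA0, 0 in MB60 against SAL60, 11 in the mean over times and 1 for any group difference. Without the 5 arrays the counts were 0 and 0 in MB against SAL at 30 and 60 min and 7 in the mean over times, and the median of CA20 against CA0 was 0.0824. On arrays of shared ratio they were 3 in MB60 against CA0, 0 and 0 in MB against SAL at 30 and 60 min and 1 in the mean, with a median of -0.0953 at 30 min; some groups then held 1 array, assumed to vary like the others. With the mean of all its probe sets MRPS12 turned to 0.01 (0.00634). The cause of these shifts was not tested.

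No shared deviation by replicate number was seen: the deviations of same-numbered arrays had a mean correlation of -0.00355, against 0.00192 for others. Whether the numbers stand for a pairing was not tested. With the replicate number as a block there was 1 call in MB180 against CA0 and 16 in the mean over times. Precision is limited by 3 arrays per group, and all members lay above the intensity filter.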

Other observations

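Probe sets whose annotation joins several symbols were outside the rule. MRPL22, a protein at the peptide tunnel, had 1 such probe set, with a methylene blue minus saline difference of 0.20 ± 0.08 (limma, adjusted p = 0.0752). MRPL55, an addition of the mitochondrial large subunit, shared 5 probe sets with a neighbouring symbol. Of these, 2 fell, by 0.44 ± 0.09 (adjusted p = 0.00107) and 0.32 ± 0.11 (0.0425) on the log2 scale, while the other differences were 0.19 ± 0.11, 0.03 ± 0.09 and -0.09 ± 0.09 (0.203, 0.804 and 0.489).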
